A study of Mus musculus with 9 samples.

Results

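The NF-kB and inflammatory cytokine genes described here are 33 genes chosen by symbol: 11 cytokines, 11 chemokines, 5 NF-kB subunits and inhibitors, and 6 effector and adhesion genes. A probe was assigned to a gene when the RefSeq accession on the array matched the symbol. This gave a probe to 32 of the 33 genes; Nfkb1, the p105/p50 subunit, had none. Il17a, the cytokine of Th17 cells, was not well above background on any of the 9 arrays. The other 31 genes passed the filter on dim probes and are among 21964 features tested, 15346 of them with a gene symbol. Of the 31, 21 were well above background on all 9 arrays.

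The study measured total RNA of normal colonic mucosa from ICR mice, an outbred stock, on single-colour Agilent arrays, and its design text names the comparison of butyrate with DMH. Every mouse, controls included, was injected under the skin with 1,2-dimethylhydrazine (DMH), a colon carcinogen of rodents, weekly at 20 mg/kg over 20 weeks. The butyrate mice also had 1.5% butyrate, a short-chain fatty acid made by gut bacteria, in their drinking water, while the DMH mice had plain water. The groups were butyrate with tumors (3 arrays), butyrate without tumors (3 arrays) and DMH (3 arrays). The age of the mice is not given in the sources used here, no group lacked DMH, and only butyrate arrays are split by tumor status. Tumor status follows the titles, descriptions and source names. In a separate field of the labels the status of each of the 6 butyrate arrays is the reverse, and if it is right, the names of the butyrate groups swap throughout and every difference between them turns its sign. Nothing in the labels ties the samples to separate animals. The p-values therefore reflect the spread among these samples only, and precision is limited by how few arrays there are.

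NF-kB is a family of dimeric transcription factors held in the cytoplasm by inhibitor proteins such as the product of Nfkbia. Signals from the TNF receptor, the IL-1 receptor and Toll-like receptors activate a kinase complex that marks the inhibitor for breakdown, and the dimers then enter the nucleus and switch on cytokines, chemokines, adhesion molecules and their own inhibitors. In the colon, epithelial cells, macrophages and stromal cells make these products, which draw neutrophils, monocytes and lymphocytes into the mucosa.

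A level is the log2 of the array's processed signal minus the 75th percentile of that array, so 0 is the 75th percentile. The groups were spread unevenly over the slides. Slide 1 held array 1 with tumors and all 3 arrays without tumors, slide 2 held arrays 2 and 3 with tumors, and slides 3 and 4 held the DMH arrays, which were scanned on another day. Slide, scan day and treatment therefore cannot be told apart in any comparison with DMH. The signal at the 75th percentile ran from 188 to 444 on slide 1 and from 740 to 880 on the other slides. The first principal component of all features (46.9% of the variance) had the 4 slide 1 arrays on one side and the other 5 on the other. All 8 colon epithelium markers were well above background on all 9 arrays. So were all 6 smooth muscle markers.

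The promoters of some members hold the sequence that NF-kB binds, and 3 of the genes called below are shown with a chemokine neighbour. RefSeq promoters of GRCm38.p6, from 250 bases before to 50 after a start, were found for 21 of the 33 genes. Il10, Il23a, Osm, Cxcl5, Ccl2, Ccl4, Ccl5, Ccl7, Nfkb1, Relb, Nos2 and Vcam1 had no entry. The kappaB consensus was searched by name on both strands, with overlapping matches counted. It matched in 8 of the 21 genes (38.1%), against 5.14% of 27025 genes with a promoter. The genes were chosen as NF-kB and inflammatory genes, so a share above that of all genes follows from the choice and is no test. The 8 genes with the consensus were Ccl20, Cxcl1, Cxcl2, Cxcl10, Il6, Nfkb2, Nfkbia and Tnfaip3. Of these, Ccl20, Cxcl1, Cxcl10, Il6 and Nfkbia were called in no comparison below. Tnf, Il1a, Il1b, Il22, Icam1 and Saa3, which were called, had a promoter entry and no match, so a match did not go with a call. Capitals below mark the matches. Cxcl1 (chr5:90891149-90891209, plus strand) and Cxcl2 (chr5:90903777-90903837, plus strand), neighbours on chromosome 5, carry the same marked stretch, in which a match on one strand overlaps a match on the other. Nfkb2 (chr19:46304673-46304736, plus strand) and Tnfaip3 (chr10:19015411-19015560, minus strand) have further starts, and the stretch shown belongs to one of them.
Cxcl1: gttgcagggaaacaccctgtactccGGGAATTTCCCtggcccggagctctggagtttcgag
Cxcl2: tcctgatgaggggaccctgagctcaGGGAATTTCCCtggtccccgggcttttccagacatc
Nfkb2: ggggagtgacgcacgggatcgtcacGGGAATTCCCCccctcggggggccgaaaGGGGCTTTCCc
Tnfaip3: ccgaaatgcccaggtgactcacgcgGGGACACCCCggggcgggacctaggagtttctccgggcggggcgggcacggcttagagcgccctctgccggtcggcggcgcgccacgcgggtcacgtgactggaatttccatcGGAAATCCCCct
The match lies 71 bases before the start in Cxcl1 and 97 bases before it in Cxcl2, counted to its first base. A match is a description of these letters and not a measured binding site, and a gene with no match in this window may have one elsewhere.

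Between the butyrate groups, 8 of the 31 genes were higher in mice with tumors and 0 were lower (limma, Benjamini-Hochberg adjusted p under 0.05 over all features), against 6.99% of all features higher and 6.56% lower. The 8 were the cytokines Tnf, Il1a, Il1b, Il22 and Il23a, the neutrophil chemokines Cxcl2 and Cxcl5, and the adhesion molecule Icam1. An unadjusted p under 0.05 was reached by 15 of the 31 genes and by 7599 of the 21964 features. The median difference of the 31 was 0.90 log2, against 0.01 for all features, and 27 of the 31 differences were above 0. In 11 genes every array with tumors lay above every array without tumors, against 16.6% of all features, and in 0 genes below, against 16.5%. These counts include Il1a, Il22 and Cxcl2, and the 11 also Ccl3, which no array without tumors showed well above background. They passed the filter only through the other groups, which favours a higher level with tumors. Of 21 genes well above background on all 9 arrays, 3 were called higher and 0 lower, beside 1163 features higher and 1624 lower. After normexp background correction with quantile scaling, Cxcl5 (2.01 log2), Il1b (1.22) and Tnf (0.83) kept the call, and the other 5 had values of 0.24 to 0.53 and lost it. With quantile scaling alone, Cxcl2 (1.90) and Il23a (1.02) lost it.

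In butyrate mice without tumors, set against DMH, 11 of the 31 genes were lower and 1 was higher, against 13.8% of all features lower and 16.6% higher. The 11 were Tnf, Il1a, Il1b, Il22, Il23a, Cxcl2, Cxcl5, Ccl7, Nfkb2, Icam1 and Saa3, and the 1 that rose was Tnfaip3, which encodes the NF-kB brake A20. This comparison and the one between the butyrate groups share the arrays without tumors. Il1a, Il22, Cxcl2 and the uncalled Ccl3 passed the filter only through the other groups, which favours a lower level without tumors. Of 21 genes well above background on all 9 arrays, 6 were called lower and 1 higher, beside 2395 features lower and 3593 higher. The median difference of the 31 was −0.57 log2, against 0.08 for all features. The arrays without tumors all lay below the DMH arrays in 18 genes, against 27.2% of all features, and all above in 7, against 32.8%. The calls of Cxcl2, Cxcl5, Il1a, Il1b, Icam1, Nfkb2 and Tnfaip3 held in all 9 fits that left out 1 array each, those of Tnf and Il22 in 6, of Ccl7 in 5, of Il23a in 4 and of Saa3 in 3. The count of 12 (beside 3656 features higher and 3038 lower) became 20 without array 1 with tumors, beside 5360 higher and 4581 lower. Without DMH array 2 or DMH array 3 it became 7, beside 1488 and 1487 features higher and 1353 and 1427 lower. With slide as a random block it became 2, beside 495 features higher and 511 lower. With normexp the calls of Il1a (−0.24 log2) and Il23a (−0.43) were lost, and Cxcl5 (−3.74), Cxcl2 (−0.76), Il22 (−0.33), Icam1 (−0.51) and Tnf (−0.67) kept theirs at smaller sizes than those given below.

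In butyrate mice with tumors, 0 of the 31 genes were called against DMH (limma), against 3.44% of all features higher and 2.26% lower, with 8 genes and 6573 features at an unadjusted p under 0.05. Their median difference was 0.16 log2, against 0.08 for all features. All arrays with tumors lay above all DMH arrays in 5 genes, against 22.9% of features, and below in 3, against 19.4%. Leaving out array 2 with tumors gave 5 genes called, all higher, beside 1070 features higher and 722 lower. Leaving out array 1 with tumors gave 1, beside 623 features higher and 381 lower. For all 6 butyrate arrays against DMH, 1 gene was higher (Tnfaip3) and 0 were lower, against 5.85% higher and 3.35% lower, with 6 genes and 6857 features at an unadjusted p under 0.05, and the median difference was −0.22 log2, against 0.08. All 6 butyrate arrays lay above all DMH arrays in 3 genes (Il10, Tnfaip3 and Vcam1), against 14.4% of features, and below in 3 (Ccl7, Cxcl5 and Nfkb2), against 11.8%. The 3 comparisons with DMH share the same DMH arrays and are not independent.

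**Figure D1:**
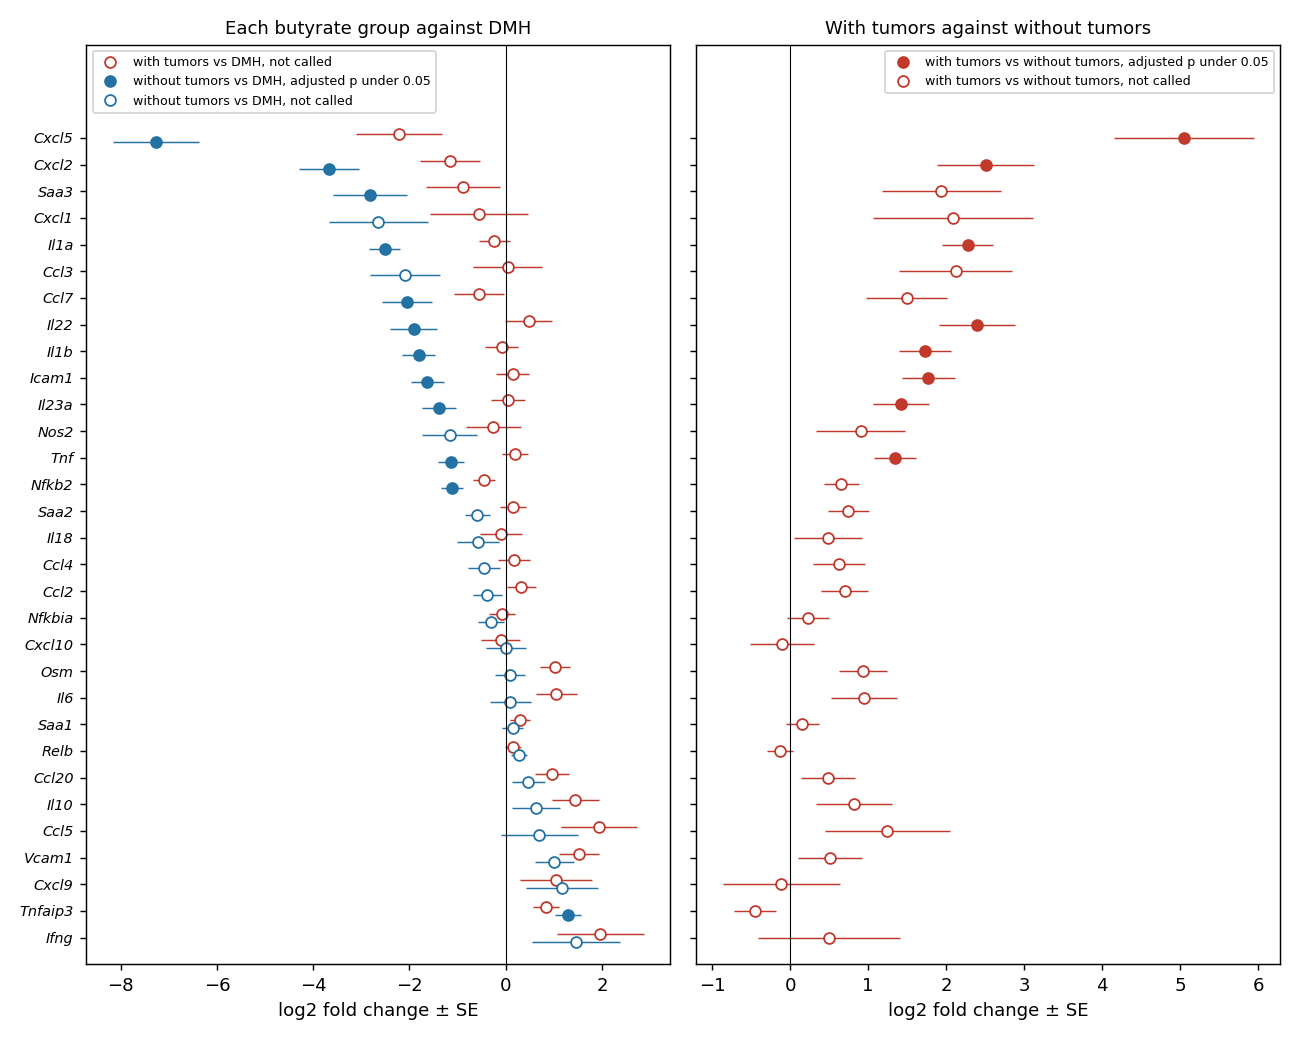
Log2 differences of the 31 inflammatory genes in the comparisons with their standard errors, from limma; filled points passed an adjusted p of 0.05. Points for butyrate without tumors against DMH lie mostly below 0 and those for with against without tumors mostly above 0.

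Tnf and the IL-1 pair are the classic upstream cytokines of NF-kB. Tnf, which signals through the TNF receptors, had levels of −0.66, −1.29 and −0.59 on the arrays with tumors, −2.58, −2.28 and −1.69 on those without tumors, and −1.03, −1.06 and −1.03 on the DMH arrays. Levels without tumors were the lowest and overlapped neither other group, while the arrays with tumors lay on both sides of DMH. Tnf was higher by 1.34 ± 0.27 log2 (SE, adjusted p = 0.0225) with than without tumors, and fell by 1.14 ± 0.27 (adjusted p = 0.0164) in mice without tumors against DMH. Il1b, the secreted IL-1 of activated macrophages, stood at −0.05, −0.94 and 0.33 with tumors, −2.42, −1.78 and −1.66 without tumors, and −0.30, −0.09 and −0.03 in DMH. It showed the same order, with the arrays without tumors apart and the others overlapping. It differed by 1.73 ± 0.34 (adjusted p = 0.021) with against without tumors, and fell by 1.81 ± 0.34 (adjusted p = 0.0075) without tumors against DMH. Against DMH, the arrays with tumors differed by 0.20 ± 0.27 in Tnf and by −0.08 ± 0.34 in Il1b (adjusted p = 0.644 and 0.887).

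Il1a, an IL-1 released from damaged cells, was dim. It measured −4.84, −5.67 and −4.40 with tumors, −7.06, −7.64 and −7.04 without tumors, and −4.56, −4.72 and −4.91 in DMH. No array without tumors and only array 3 with tumors was well above background, while all 3 DMH arrays were. Il1a was higher with than without tumors (adjusted p = 0.0125), with no fold given because most arrays on both sides were too dim, and in mice without tumors its level was at least 4.41-fold lower than in DMH (adjusted p = 0.00222). In such a bound the brighter group's mean is set against a floor for the dimmer group, the lowest signal that counted as well above background on the same array, or the probe's own signal where that was higher. The bound holds under this background subtraction and scaling only. After normexp the differences of Il1a, Il22 and Cxcl2 from DMH without tumors, given above, were smaller than their bounds. A second Il1a probe that missed the filter differed by −2.26 in mice without tumors against DMH.

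Il22 and Il23a belong to the axis in which IL-23 from myeloid cells drives IL-22 from lymphoid cells, which acts on the epithelium. Il22 had levels of −4.06, −5.00 and −3.91 with tumors, −5.93, −7.84 and −6.39 without tumors, and −4.57, −4.84 and −5.02 in DMH. It was well above background on all arrays with tumors and all DMH arrays and on none without tumors. It was at least 4.98-fold higher with than without tumors (adjusted p = 0.023), and without tumors at least 3.57-fold lower than in DMH (adjusted p = 0.0214). A second Il22 probe that missed the filter differed by −0.76 without tumors against DMH (adjusted p = 0.42). Il23a, the subunit unique to IL-23, measured −4.08, −3.82 and −2.73 with tumors, −5.44, −4.79 and −4.67 without tumors, and −3.53, −3.52 and −3.72 in DMH. Again all levels without tumors were below both other groups, and array 1 without tumors was not well above background. Il23a differed by 1.42 ± 0.36 (adjusted p = 0.0384) with against without tumors and fell by 1.38 ± 0.36 (adjusted p = 0.0224) without tumors against DMH.

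The other cytokines did not pass the test in any comparison. Ifng, the macrophage-activating product of T and natural killer cells, measured −0.74, −4.88 and −3.70 with tumors, −4.30, −3.20 and −3.32 without tumors, and −5.58, −4.94 and −4.70 in DMH. Il10, a cytokine that restrains inflammation, measured −1.91, −4.13 and −3.59 with tumors, −4.21, −4.07 and −3.81 without tumors, and −4.48, −4.84 and −4.67 in DMH. In both genes array 1 with tumors was far above every other array, and the arrays without tumors lay above DMH. For Ifng, DMH array 1 was not well above background. A second Ifng probe differed by 0.41 ± 0.73 without tumors against DMH, beside 1.46 ± 0.91 for the probe used. Osm, the IL-6 family member oncostatin M, measured −2.64, −3.57 and −2.90 with tumors, −3.75, −4.21 and −3.95 without tumors, and −3.60, −4.55 and −4.04 in DMH. Every array with tumors was above all of the others, by 0.93 ± 0.31 over those without tumors (adjusted p = 0.0772) and 1.03 ± 0.31 over DMH (adjusted p = 0.0786). Il6 was highest on array 1 with tumors at −3.98, and its groups overlapped in each comparison. It was not well above background on array 3 without tumors and DMH arrays 1 and 2. Il18, which epithelial cells store as a precursor, had levels of 1.71 to 3.07 with tumors, 1.11 to 2.58 without tumors and 2.54 to 2.61 in DMH, and its groups also overlapped.

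**Figure D2:**
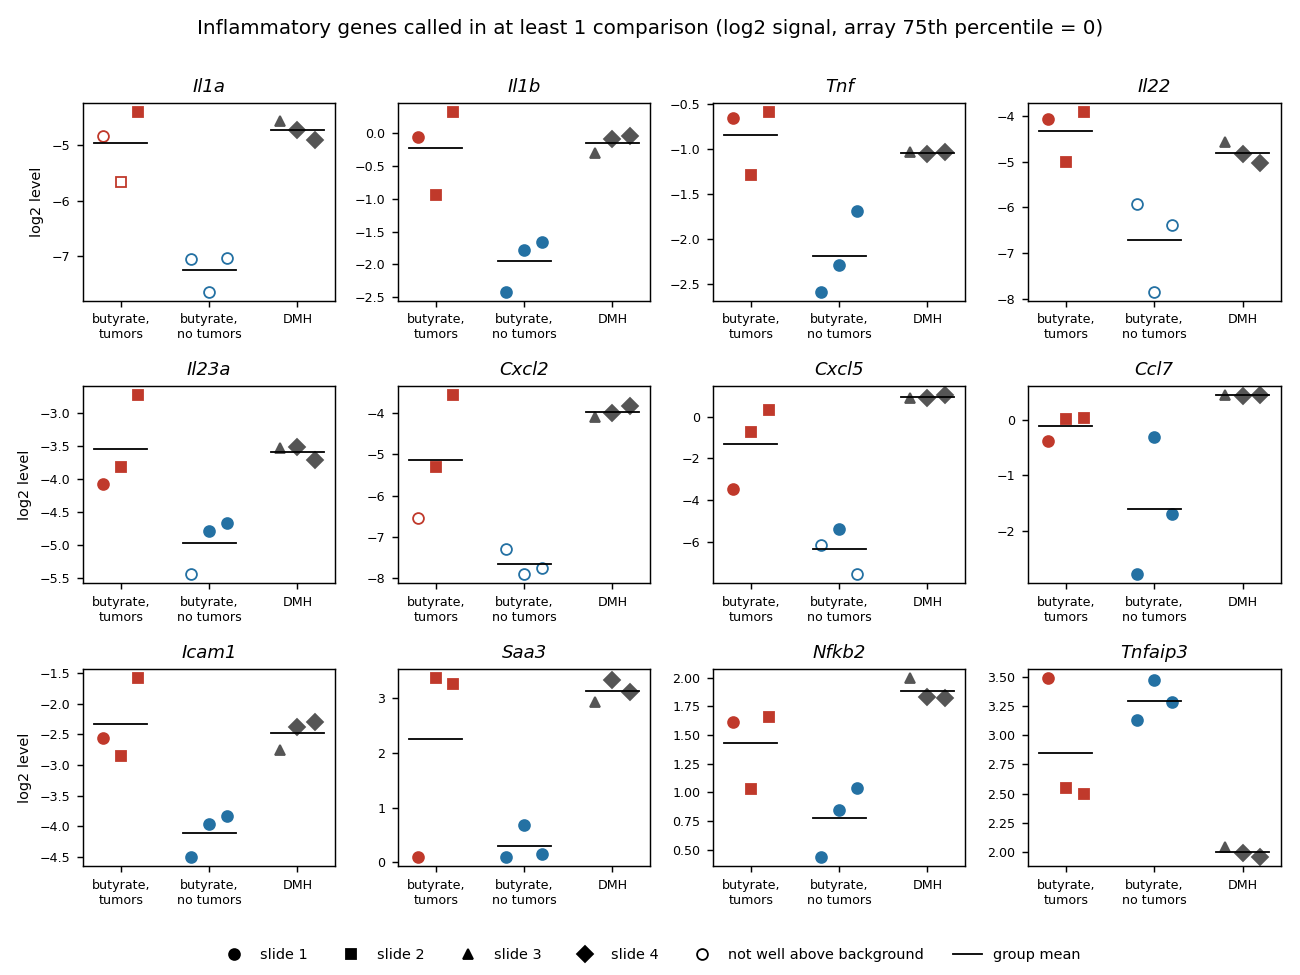
Log2 level (array 75th percentile = 0) of the genes called in at least 1 comparison, 1 point an array, with slide by marker shape, open points for arrays not well above background and lines at group means. The arrays without tumors are the lowest in Tnf, Il1b, Icam1 and Cxcl5, and the DMH arrays are the lowest in Tnfaip3.

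Cxcl1, Cxcl2 and Cxcl5 draw neutrophils through the receptor CXCR2. Cxcl5, which epithelial cells make, measured −3.44, −0.74 and 0.32 with tumors, −6.12, −5.37 and −7.53 without tumors, and 0.87, 0.88 and 1.04 in DMH. The DMH arrays were the highest, the arrays with tumors came next, and the arrays without tumors were the lowest, with no overlap; among the last only array 2 was well above background, so the size of a difference from them is poorly measured. Cxcl5 differed by 5.05 ± 0.90 (adjusted p = 0.0176) with against without tumors, by −7.27 ± 0.90 (adjusted p = 0.00196) without tumors against DMH, and by −2.22 ± 0.90 (adjusted p = 0.142) with tumors against DMH. Cxcl2 measured −6.55, −5.31 and −3.56 with tumors, −7.28, −7.90 and −7.75 without tumors, and −4.11, −4.00 and −3.83 in DMH. Array 1 with tumors and all arrays without tumors were not well above background, and array 3 with tumors was the highest of all. Cxcl2 was at least 3.86-fold higher with than without tumors (adjusted p = 0.0382) and, without tumors, at least 8.61-fold lower than in DMH (adjusted p = 0.00584). Cxcl1 measured −5.68, −2.85 and −1.51 with tumors, −7.03, −4.89 and −4.39 without tumors, and −2.97, −2.75 and −2.65 in DMH. All 3 levels without tumors lay below all DMH arrays (−2.64 ± 1.03), which did not pass the test (adjusted p = 0.0809). Cxcl1 was not well above background on array 1 with tumors and array 1 without tumors, so this size is poorly measured.

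Ccl2 and Ccl7 draw monocytes through CCR2. Ccl7 measured −0.38, 0.02 and 0.03 with tumors, −2.79, −0.31 and −1.71 without tumors, and 0.45, 0.44 and 0.46 in DMH. Its DMH arrays lay within a narrow band above all butyrate arrays, and array 1 without tumors was the lowest. Ccl7 fell by 2.05 ± 0.52 (adjusted p = 0.0209) without tumors against DMH, and its second probe by 2.47 ± 0.58. Ccl2 measured −0.25, −1.25 and −0.16 with tumors, −1.01, −1.11 and −1.64 without tumors, and −0.86, −0.90 and −0.86 in DMH. The arrays without tumors were below DMH and the arrays with tumors were on both sides of it. Ccl3 and Ccl4 attract monocytes and lymphocytes, and Ccl3 was well above background only on array 3 with tumors and DMH arrays 2 and 3. Ccl3 measured −6.48, −5.89 and −3.86 with tumors, −7.30, −7.84 and −7.46 without tumors, and −6.73, −4.94 and −4.67 in DMH. All levels without tumors were below both other groups, which did not pass the test (adjusted p = 0.0823 and 0.0592). Ccl4 measured −2.02, −3.53 and −2.72 with tumors, −3.15, −3.41 and −3.59 without tumors, and −2.94, −3.01 and −2.84 in DMH. Its levels without tumors lay below all DMH arrays (−0.45 ± 0.34, adjusted p = 0.327).

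The chemokines for lymphocytes did not pass the test in any comparison. Ccl5, the T cell chemokine RANTES, measured 5.18, 2.00 and 3.54 with tumors, 0.99, 2.74 and 3.24 without tumors, and 1.72, 1.66 and 1.51 in DMH. All arrays with tumors were above DMH (1.94 ± 0.80, adjusted p = 0.148), and the arrays without tumors lay on both sides of it. Cxcl9, an interferon-gamma target, measured 1.33, −2.12 and −1.51 with tumors, −0.57, −0.49 and −0.90 without tumors, and −1.82, −1.85 and −1.79 in DMH. Array 1 with tumors and the arrays without tumors, all on slide 1, were above all arrays of the other slides. Ccl20, the ligand of CCR6, measured 0.99, −0.42 and 0.72 with tumors, −0.22, −0.22 and 0.27 without tumors, and −0.74, −0.38 and −0.47 in DMH, with the arrays without tumors above DMH. Cxcl10, a further interferon target, had levels of −1.38 to 0.00 with tumors, −1.48 to −0.31 without tumors and −0.88 to −0.58 in DMH, and the groups overlapped.

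Among the subunits and inhibitors the directions were mixed. Tnfaip3, which encodes A20, an NF-kB target that ends the signal, measured 3.49, 2.54 and 2.49 with tumors, 3.13, 3.48 and 3.28 without tumors, and 2.05, 2.00 and 1.96 in DMH. All 6 butyrate arrays were above all DMH arrays, and the 4 on slide 1 were above the 2 on slide 2. Tnfaip3 was higher by 1.07 ± 0.26 (adjusted p = 0.0404) in all butyrate arrays against DMH and by 1.30 ± 0.27 (adjusted p = 0.0105) in those without tumors against DMH. The first of these calls was lost when any of 7 arrays was left out (adjusted p up to 0.158), and passed without array 2 or array 3 with tumors. Without the slide 1 arrays the difference was 0.52 (adjusted p = 0.0439).

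Nfkb2, the p100/p52 subunit of the alternative pathway, measured 1.62, 1.03 and 1.66 with tumors, 0.44, 0.85 and 1.04 without tumors, and 2.00, 1.83 and 1.82 in DMH. All DMH arrays were above all butyrate arrays, and Nfkb2 fell by 1.11 ± 0.23 (adjusted p = 0.0107) without tumors against DMH. Nfkbia, which encodes the inhibitor IkB-alpha, measured 5.01, 3.84 and 4.22 with tumors, 4.12, 4.07 and 4.20 without tumors, and 4.52, 4.44 and 4.35 in DMH. Array 1 with tumors was the highest, and the arrays without tumors differed from DMH by −0.31 ± 0.27 (adjusted p = 0.408). Relb, the partner of p52, measured 3.16, 2.80 and 2.97 with tumors, 3.31, 3.04 and 2.95 without tumors, and 2.92, 2.82 and 2.72 in DMH. Relb was above DMH on all arrays without tumors, by 0.28 ± 0.17 (adjusted p = 0.226).

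Icam1 and Vcam1 encode adhesion molecules of vessel walls that hold leukocytes. Icam1 measured −2.56, −2.86 and −1.57 with tumors, −4.50, −3.97 and −3.84 without tumors, and −2.75, −2.38 and −2.29 in DMH. Icam1 was lowest on all 3 arrays without tumors, and the other groups overlapped. Icam1 differed by 1.77 ± 0.34 (adjusted p = 0.0207) with against without tumors and fell by 1.63 ± 0.34 (adjusted p = 0.0112) without tumors against DMH. Vcam1 measured 3.21, 1.40 and 1.77 with tumors, 1.40, 1.76 and 1.69 without tumors, and 0.53, 0.65 and 0.63 in DMH. All butyrate arrays were above DMH, by 1.52 ± 0.41 with tumors (adjusted p = 0.061) and 1.01 ± 0.41 without tumors (adjusted p = 0.0912). A second Vcam1 probe differed by 1.25 ± 0.28 with tumors against DMH (adjusted p = 0.0468), by 1.11 ± 0.28 with against without tumors (adjusted p = 0.0409) and by 0.13 ± 0.28 without tumors against DMH, so the probes disagree.

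The serum amyloid A genes encode acute-phase proteins. Saa3 measured 0.10, 3.38 and 3.27 with tumors, 0.10, 0.68 and 0.15 without tumors, and 2.94, 3.33 and 3.12 in DMH. All 4 slide 1 arrays were low and all 5 other arrays were high, so array 1 with tumors went with the arrays without tumors. Saa3 fell by 2.82 ± 0.77 (adjusted p = 0.0265) without tumors against DMH, a call kept in 3 of the 9 fits that left out 1 array. Saa2 measured 5.04, 6.09 and 5.75 with tumors, 4.66, 4.98 and 5.00 without tumors, and 5.48, 5.59 and 5.33 in DMH, and the arrays without tumors were the lowest (−0.59 ± 0.27 against DMH, adjusted p = 0.121). Saa1 had levels of 5.95 to 6.59 with tumors, 6.01 to 6.34 without tumors and 5.77 to 6.17 in DMH, and its groups overlapped. Saa1 and Saa2 are near copies of each other, so their probes may share signal. Nos2, the inducible nitric oxide synthase, measured −6.14, −4.14 and −3.59 with tumors, −5.92, −5.11 and −5.56 without tumors, and −4.32, −4.36 and −4.41 in DMH. On slide 1, array 1 with tumors and all arrays without tumors were below all DMH arrays. Of these, array 1 with tumors and array 1 without tumors were not well above background.

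Array 1 with tumors shared slide 1 with the arrays without tumors, so it allows a comparison within a slide, with 1 array on one side. It lay above all 3 arrays without tumors in 24 of the 31 genes (77.4%), against 34.7% of all features, and below all 3 in 3 genes (9.68%), against 32.3%. The median difference was 1.10 log2 for the 31 genes and 0.03 for all features. The signal at the 75th percentile was 188 on this array and 281 to 444 on those without tumors. Its part in the levels of dim genes was not tested. Of the genes called with against without tumors, Il1b differed by 1.90 within the slide, Icam1 by 1.55, Tnf by 1.53, Il1a by 2.41, Il22 by 2.66, Cxcl5 by 2.90, Cxcl2 by 1.10 and Il23a by 0.89. Il1a and Cxcl2, and Ccl3 among the 24, were not well above background on any slide 1 array, nor was Il22 on any without tumors. Their differences within the slide are therefore poorly measured. None of the 8 passed the test within the slide (limma, adjusted p = 0.0888 to 0.308, 19 of the 31 genes and 4474 features at an unadjusted p under 0.05). Fitted on the butyrate arrays alone, 0 genes and 0 features were called between the groups, with 13 genes and 5838 features at an unadjusted p under 0.05. The 8 calls thus came from a fit whose estimate of the spread also used the DMH arrays, which are not in this contrast. A fit with the slide as a fixed block called 6 genes higher, of which 1 (Il1a) was among the 8, beside 1463 features higher and 999 lower. One with the slide as a random block called 6 higher that were all among the 8, without Il23a and Cxcl2. Beside them were 1220 features higher and 1022 lower.

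**Figure D3:**
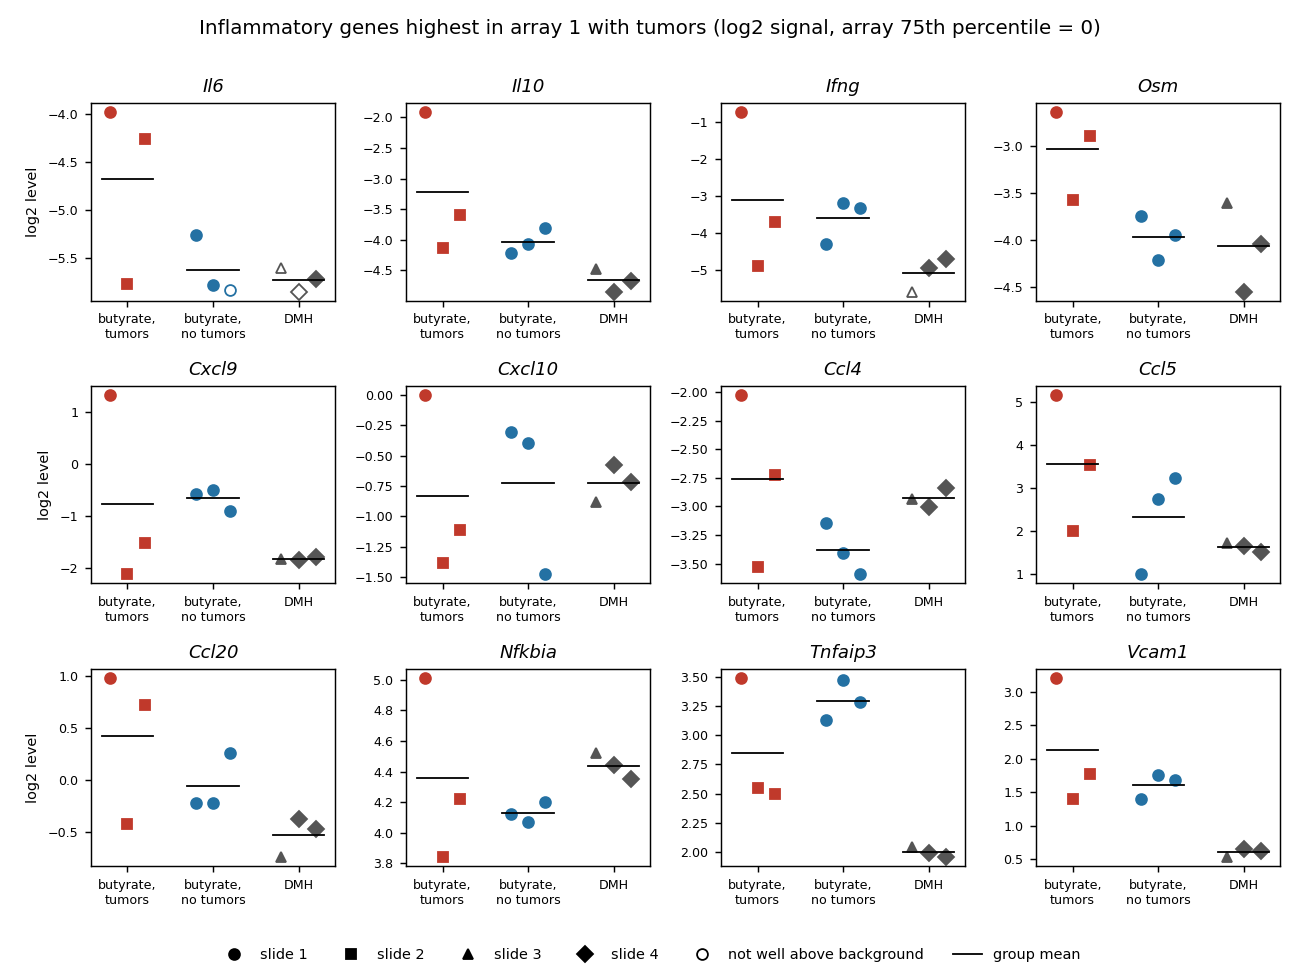
Log2 level (array 75th percentile = 0) of the 12 genes whose highest level of all 9 arrays was on array 1 with tumors, chosen after the values were seen; marker shapes give the slide and open points arrays not well above background. Array 1 with tumors is at 5.18 in Ccl5 and at 1.33 in Cxcl9.

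The 3 arrays with tumors were not alike in which genes were high. Array 1 with tumors had the highest level of all 9 arrays in 12 of the 31 genes (38.7%), against 19.3% of all features. They were Il6, Il10, Ifng, Osm, Cxcl9, Cxcl10, Ccl4, Ccl5, Ccl20, Nfkbia, Tnfaip3 and Vcam1. Array 3 with tumors held 11 (35.5%), against 15.2%: Tnf, Il1a, Il1b, Il22, Il23a, Cxcl1, Cxcl2, Ccl2, Ccl3, Nos2 and Icam1. Array 2 with tumors held 4 (12.9%), against 7.19%: Il18 and the 3 serum amyloid genes. The lowest level lay on an array without tumors for 18 genes. Array 1 without tumors held 10 of them (32.3%), against 17.6% of all features. Array 2 held 4 (12.9%), against 7.43%, and array 3 held 4 (12.9%), against 8.75%. Among the 18, Il1a, Il22, Cxcl2 and Ccl3 were not well above background on any array without tumors. Leaving out array 1 with tumors gave 13 genes higher and 2 lower between the butyrate groups, beside 4129 features higher and 3645 lower. Leaving out array 3 with tumors gave 1 gene higher, beside 111 features higher. Leaving out array 2 with tumors gave 12 higher, beside 1183 features, and leaving out array 1 without tumors gave 3, beside 615 features. Of the 8 calls, that of Il1a held in all 9 such fits, those of Cxcl5 and Il22 in 8, of Il1b and Icam1 in 7, of Tnf in 6 and of Cxcl2 and Il23a in 1. Il1a was well above background on 1 array with tumors, 0 without tumors and 3 DMH arrays. Its call between the butyrate groups thus rests on dim signals, and it was lost after normexp.

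Markers of several cell types also differed between the groups, not always as these genes did. All 7 tested neutrophil markers were lower without tumors than in DMH (limma, adjusted p under 0.05), against 13.8% of all features. Their median difference was −4.68, or −4.27 with the dim ones at their bound. Their summed level, in units of the array's 75th percentile, was 0.62 to 7.16 with tumors, 0.14 to 0.36 without tumors and 4.15 to 4.62 in DMH. S100a8, Ltf, Lcn2 and Retnlg were not well above background on any array without tumors, and 4 of the 11 markers were not tested. These dim markers passed the filter only through the other groups, which favours a lower call without tumors. Between the butyrate groups 4 of the 7 tested markers were higher with tumors, against 6.99% of all features. By array, the neutrophil markers' median difference from the DMH mean was −2.90, −1.45 and 0.30 with tumors and −3.53, −4.67 and −4.23 without tumors, and that of the 31 inflammatory genes was 0.34, −0.19 and 0.47 with tumors and −0.81, −0.48 and −0.66 without tumors.

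The macrophage and dendritic cell markers had a summed level of 39.6 to 64.6 with tumors, 29.0 to 36.8 without tumors and 41.6 to 42.8 in DMH. Of these, 2 of 10 were lower without tumors than in DMH, against 13.8% of all features. The T and natural killer cell markers stood 2.19 above the DMH mean on array 1 with tumors, against 0.06 and 0.73 on the other arrays with tumors and 0.09 to 0.37 without tumors. The B and plasma cell markers stood 2.47 above it there, against 0.00 and 0.82 on the other arrays with tumors and −0.77 to 0.09 without tumors. The same array had the highest Ifng, Cxcl9 and Ccl5. Of the 8 mast cell markers, 5 were lower without tumors than in DMH, against 13.8% of all features, with a median difference of −2.40. The colon epithelium markers summed to 568 to 856 with tumors, 483 to 670 without tumors and 1156 to 1342 in DMH. The smooth muscle markers summed to 431 to 868 with tumors, 380 to 830 without tumors and 219 to 376 in DMH. The part of these cell types in the results was not tested, and in bulk tissue fewer cells of a type and less RNA per cell cannot be told apart.

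**Figure D4:**
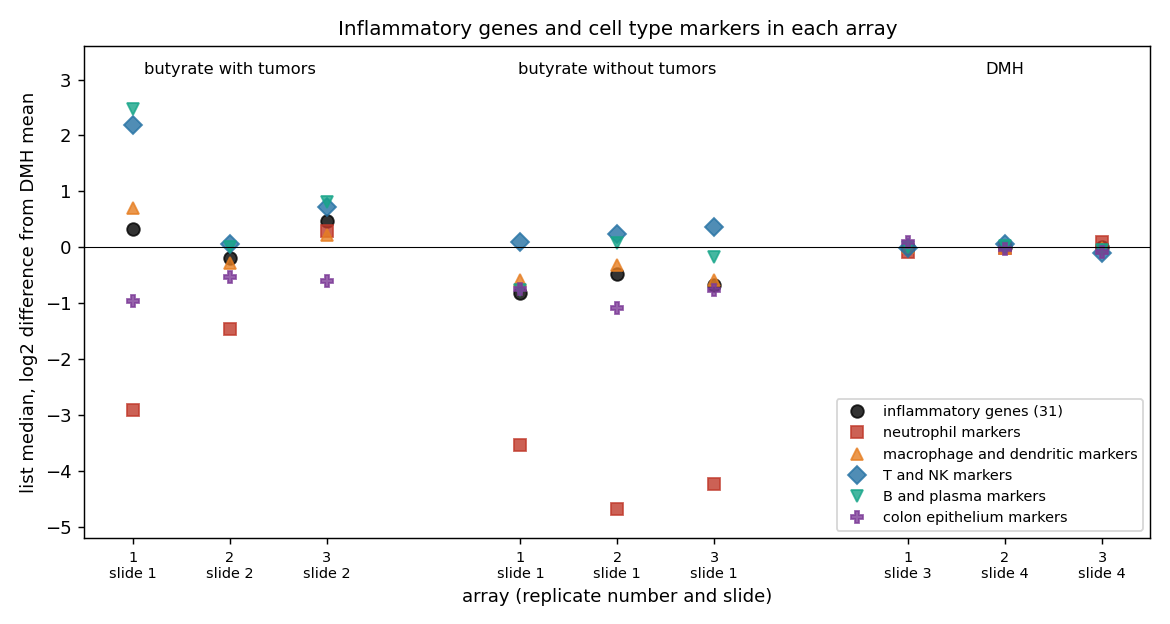
Median log2 difference from the DMH mean on each array for the 31 inflammatory genes and for lists of cell type markers. Of the lists drawn, the neutrophil list is the lowest on the arrays without tumors, and the T and natural killer list is high on array 1 with tumors.

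Receptors, signalling proteins and feedback regulators of the pathway had median differences of 0.50, 0.04 and 0.11 log2 with against without tumors, beside 0.90 for the 31 genes and 0.01 for all features. Between the butyrate groups, 2 of 26 receptors and decoys tested were higher with tumors and 0 lower, 3 of 31 signalling genes were higher and 1 lower, and 4 of 23 feedback genes were higher and 1 lower, against 6.99% of all features higher and 6.56% lower. Socs3, a feedback inhibitor of cytokine signalling, differed by 1.48 ± 0.18 (adjusted p = 0.0118). Il22ra2, a secreted decoy for IL-22, differed by 1.55 ± 0.31 (adjusted p = 0.0223) and by 1.47 ± 0.31 (adjusted p = 0.0401) with tumors against DMH. The monocyte receptor Ccr2, well above background on 2 arrays with tumors and on none without, was at least 5.49-fold higher with than without tumors (adjusted p = 0.0334). Nfkbie, an inhibitor of the IkB family, differed by 1.69 ± 0.38, the kinase gene Ikbkb by 0.83 ± 0.19 and the adaptor gene Traf2 by 0.69 ± 0.17. Lower with tumors were the phosphatase gene Dusp1 (−0.95 ± 0.20) and the Toll-like receptor adaptor gene Ticam1 (−0.71 ± 0.17).

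In mice without tumors against DMH, 5 of 26 receptors and decoys were higher and 0 lower, 4 of 31 signalling genes were higher and 6 lower, and 2 of 23 feedback genes were higher and 2 lower, against 16.6% of all features higher and 13.8% lower. Ikbkb fell by 1.10 ± 0.19, Irak1, an IL-1 receptor kinase, by 1.10 ± 0.20, Map3k7, which encodes the kinase TAK1, by 1.51 ± 0.31, and Socs3 by 0.90 ± 0.18. Dusp1 was higher by 1.16 ± 0.20, the TAK1 partner Tab3 by 1.03 ± 0.20, the interferon-gamma receptor subunit Ifngr2 by 1.14 ± 0.23 and the IL-1 receptor accessory protein Il1rap by 0.94 ± 0.18. A second probe of Ifngr2 differed by 0.11, and one of Il1rap by −1.49, so these probes disagree in size or sign. For all butyrate arrays against DMH, Tab3 was higher by 0.82 ± 0.22 (adjusted p = 0.0475) and Nfkbib, another inhibitor of the family, fell by 0.63 ± 0.16 (adjusted p = 0.0464).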

How the data were processed

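Each array came as a scanner file. Per the file headers, gProcessedSignal is the spot intensity after background subtraction by Agilent Feature Extraction 10.5.1.1, and arrays were not scaled to each other. The authors' deposited value table holds log2 values of 21829 probes, each the log2 gProcessedSignal less a constant that is fixed within an array (SD of the difference at most 0.00807). What the constant is stays unknown, and the column medians were 2.71 to 3.20.

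Control and outlier spots were left out, and spots of a probe averaged. Of 41174 probes 26933 had 1 symbol by accession. DMH files gave 4725 probes another accession, and the butyrate version was used. Probes well above background on at least 3 of 9 arrays, with at least 2 values per group, were kept (28521), and each gene took its brightest probe. limma 3.58.1 in R 4.3.3 (lmFit, eBayes, 2-sided) used 2 groups for butyrate against DMH and 3 groups otherwise, with adjusted p under 0.05 over all features. Slide as a random block used statmod 1.5.0. The fit was tested on simulated data. Tables and plots were made in Python 3.11.15 with numpy 2.4.6, pandas 2.3.3 and matplotlib 3.10.9. The members and lists were chosen with earlier results of these data known. Values on every array are given for genes called in a comparison or whose groups do not overlap, and up to 8 called genes of the pathway lists are named per comparison by smallest p.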

Additional observations from a re-analysis of the deposited data

Results flagged for a closer look

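On 3 of the 31 genes tested, array 1 with tumors lay far above the other 5 butyrate arrays, by a rule that chance meets in about 1 of 20 groups. Il10 was at −1.91 there, with the next array at −3.59. Nfkbia was at 5.01, with the next at 4.22. Vcam1 was at 3.21, with the next at 1.77. The T and natural killer cell markers (2.19 log2 above the DMH mean) and the B and plasma cell markers (2.47) were also highest on that array, and their part was not tested.

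For 8 genes the change against DMH differed between butyrate mice with and without tumors, by limma's test of that difference. It is the contrast of with against without tumors already described, since the DMH arrays cancel, and no separate result. The differences were 5.05 log2 for Cxcl5, 2.51 for Cxcl2, 2.40 for Il22, 2.28 for Il1a, 1.77 for Icam1, 1.73 for Il1b, 1.42 for Il23a and 1.34 for Tnf. The fitted values of Cxcl2, Il22 and Il1a rest on a group without tumors that was not well above background. For Cxcl5 the same was true of 2 of the 3 arrays without tumors, so the sizes for these 4 genes are poorly measured.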

How the results depend on the processing

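Of 388 values of called genes under other settings, 279 kept their call, 109 kept the direction but not the call, and 0 reversed. For butyrate against DMH, the count of genes called (1) was 0 with the authors' values, without the filter, with the replicate block, with slide as a random block and with DMH arrays 2 and 3 averaged, 2 with normexp, with probes well above background on all 9 arrays and without the slide 1 arrays, and 7 in a fit of 3 groups. Features called (2020) were 1197 with the authors' values, 511 without the filter, 5052 with 3 groups, 583 with the replicate block, 17 with slide as a random block and 4 with the DMH average. With tumors against DMH, the count (0) was 1 on all 9 arrays and with the replicate block and 2 without the slide 1 arrays. Features (1252) were 1956 with the authors' values, 190 without the filter, 356 in a fit of only these groups, 477 with the replicate block, 4 with slide as a random block, 4 with the DMH average and 2504 without slide 1. Without tumors against DMH, the count (12) was 7 with the authors' values, on all 9 arrays and with the DMH average, 20 in a fit of only these groups and 2 (Cxcl5 and Il1a) with slide as a random block. With the authors' values and on all 9 arrays only 21 of the genes were tested, and the 7 that had been called among them kept the call. Features (6694) were 1006 with that block, 2907 with the DMH average, and 5274 higher and 4423 lower in the fit of only these groups. With against without tumors, the count (8) was 3 with normexp, the authors' values and all 9 arrays, and 0 in a fit of only these groups and within slide 1, where the authors' values and all 9 arrays again left 21 genes tested and the 3 called among them kept the call. Features (2976) were 1442 without the filter and 0 in both of the last. The fits of only the groups compared hold fewer samples, and their counts moved both ways (20 and 0 genes). The filter changes the number of features. The fit of 3 groups takes 1 spread from all 9 arrays, DMH included, also for the contrast between the butyrate groups. The SD of Tnf was 0.38 with tumors, 0.45 without tumors and 0.01 in DMH, and that of Ccl3 was 1.38, 0.28 and 1.12. The part of any of these in the counts was not tested.

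Leaving out each array in turn gave 0 to 4 genes and 7 to 3626 features for butyrate against DMH, 0 to 5 and 4 to 1792 with tumors against DMH, 7 to 20 and 2841 to 9941 without tumors against DMH, and 1 to 15 and 177 to 7774 between the butyrate groups. The lowest feature counts against DMH came without DMH array 2 (7 for all butyrate arrays). The authors' values moved the median of all features by over 0.1 between the butyrate groups, to −0.36 against 0.01, without tumors against DMH to 0.25 against 0.08, and with tumors against DMH to −0.11 against 0.08. The share of called features that were higher between the butyrate groups was 51.6%, 38.8% with quantile scaling, 38.1% with normexp and 14.4% with the authors' values. For butyrate against DMH it was 63.6%, 49.2% with normexp and 39.2% with the authors' values, with tumors against DMH 60.4%, 47.5% with quantile scaling, 40.8% with normexp and 21.2% with the authors' values, and without tumors against DMH 54.6% and 67.1% with the authors' values.

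Same-numbered arrays deviated together with correlations of −0.01 to 0.26, and differently numbered ones with −0.24 to 0.23. The check does not settle whether the replicate numbers pair the samples. With the replicate block 14 genes and 6866 features were called without tumors against DMH, and 9 and 2809 between the butyrate groups. Signal over background limits Ccl3, Cxcl2, Il1a and Il22, which no array without tumors showed well above background, so they passed the filter only through the other groups. Cxcl1, Cxcl5, Ifng, Il6, Il23a and Nos2 were also not well above background on every array.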
